A study of Bos taurus with 6 samples.

Results

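The mitochondrial ribosomal protein genes were taken as all genes whose name in the files begins with MRPL or MRPS and a number, and 77 of the 18010 genes met this rule. Of these 77 genes, 49 are named for the large subunit (MRPL) and 28 for the small subunit (MRPS) of the mitochondrial ribosome. Every one of the 77 had a mean FPKM (fragments per kilobase of transcript, scaled to the depth of the library) of at least 1 in both breeds, so none was lost to the filter on low values and all entered the test.

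The mitochondrial ribosome, or mitoribosome, translates the few proteins that are encoded by mitochondrial DNA, all of them subunits of the respiratory chain and of ATP synthase. Its RNAs are transcribed inside the organelle, whereas all of its proteins are encoded in the nucleus, made in the cytosol and imported. Skeletal muscle uses these proteins to make ATP, and slow fibres hold more mitochondria than fast fibres.

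The samples were longissimus dorsi muscle, a back muscle, from 3 Shandong black cattle (B1 to B3) and 3 Luxi cattle (L1 to L3), all 18 months old and sequenced as 1 library per animal. The study sought genes that separate the breeds in fat deposition. It describes the Shandong black cattle as bred from crosses of Japanese black, Luxi and Bohai black cattle, and names Luxi cattle as a first-generation mother. By this account the breeds share Luxi ancestry. The study also describes the Shandong black cattle as descended from cloned animals for which Luxi cattle served as recipients. The animals of each breed were obtained from a different supplier, so breed and origin cannot be told apart. The sample labels give neither the sex nor the kinship of the animals. The study writes of a bull in the breeding history of the Shandong black cattle and again in a legend about its samples. It describes its comparison as one of hybrid cattle with cows, and of hybrid offspring with a mother generation. Whether sex differed between the breeds is therefore not known. With 3 against 3, an exact two-sided permutation test cannot give a p below 0.1.

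The libraries held 14.1 to 14.6 gigabases of aligned sequence in the Shandong black cattle and 17.52 to 17.99 in the Luxi cattle. The muscle label held, since the summed FPKM of 10 skeletal muscle genes was 43569 to 56029 in the Shandong black cattle and 24564 to 74370 in the Luxi cattle, and L1 was the lowest of the 6 animals. The 4 red blood cell genes found in the files summed to 0.583 to 1.65 FPKM in every animal. Other cell markers differed between the breeds to varying degrees. The 8 slow fibre genes summed to 26545 to 32778 FPKM in the Shandong black cattle and 3428 to 13849 in the Luxi cattle, and the 9 fast fibre genes to 3360 to 5860 and 4971 to 31875, with L1 inside the Shandong black range. The 7 fat cell genes summed to 133 to 197 and 38.3 to 55.4 FPKM, the 6 connective tissue genes to 113 to 169 and 384 to 511, the 5 endothelial genes to 18.2 to 19.5 and 23.4 to 64.7, and the 6 immune genes to 7.18 to 11.1 and 4.65 to 9.66, which overlapped. Not every gene followed its sum. Of the 8 slow fibre genes 7 were lower in the Luxi cattle, and 1 was higher in all Luxi animals at a log2 fold change of 3.33. Of the 7 fat cell genes 6 were lower, and 1 was higher in all Luxi animals at 0.85. Of the 5 endothelial genes 4 were higher and 1 was lower. In whole muscle, fewer cells of a type and less RNA per cell cannot be told apart, and the part of these markers in the results that follow was not tested.

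The members were expressed at a moderate level. Their mean FPKM over the 6 animals ran from 1.80 to 32.5, a 17.99-fold range, with a median of 8.94 against 3.72 for all genes tested. A level between 5 and 25 FPKM was found for 51 members, a level under 5 for 23 and a level over 25 for 3. FPKM is per length of transcript, so these levels can be set side by side between genes.

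MRPL9, a large subunit protein with a bacterial homologue, had the highest mean level. Its FPKM was 34.4, 36.3 and 33.9 in B1, B2 and B3, and 23.7, 32.5 and 34.1 in L1, L2 and L3. L1 was the lowest animal and the other 5 lay close together. Next in order were MRPS6, MRPS18A, MRPL37 and MRPS35 at means of 30.4, 25.8, 22.7 and 22.5 FPKM, and the ranges of these 5 members over the animals overlapped. The lowest were MRPL30 at 1.80, MRPS30 at 1.96, MRPL57 at 2.14, MRPL47 at 2.25 and MRPS9 at 2.33 FPKM, and their ranges overlapped as well. The low rank of MRPS30 held for FPKM only. Coverage of its reference exons was 7.57 to 11.4 per gigabase of library, above the median member, at 6.65 to 9.10, in every animal.

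The order of the levels was largely shared by the animals. Over the 77 members, Spearman's rho between 2 animals was 0.72 to 0.91 in the 15 pairs of animals, and 0.90 between the breed means, as a description across genes that share their transcript models and libraries. MRPL9, MRPL21, MRPL37 and MRPL40 were among the 10 highest members in all 6 animals, and MRPS9 was the one member among the 10 lowest in all 6. The steadiest member was MRPL13, whose highest animal was 1.31-fold above its lowest. In 12 members the highest animal was less than 1.5-fold above the lowest, and in 20 members more than 3-fold.

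**Figure D1:**
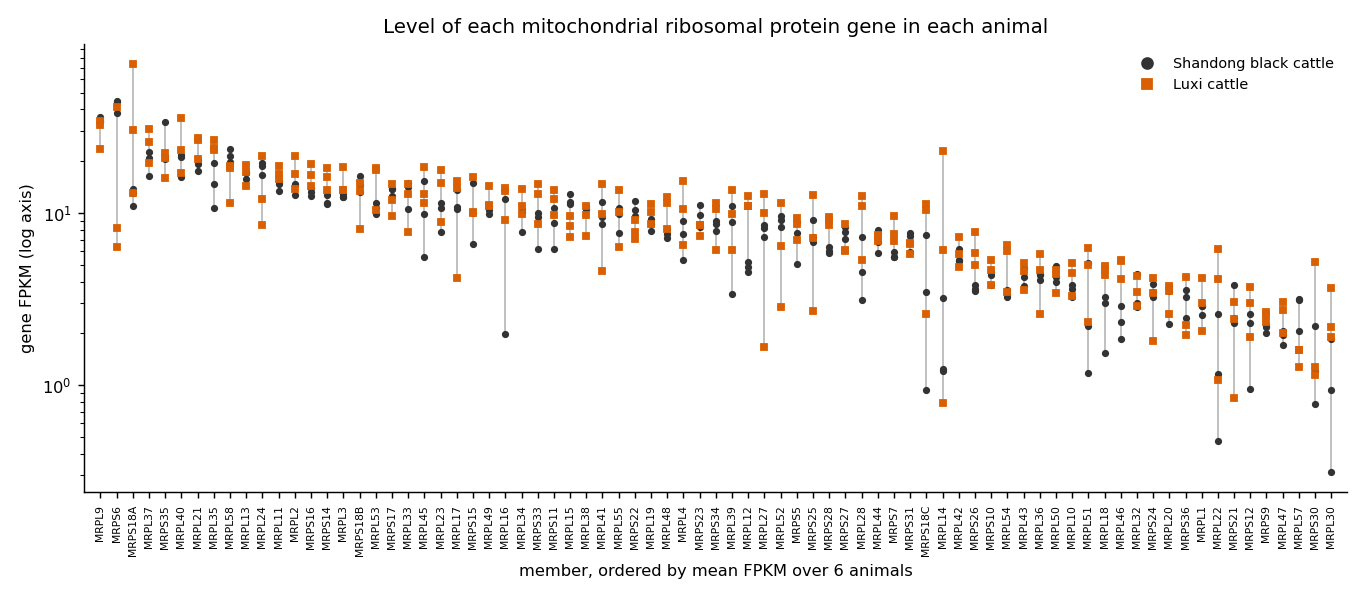
Gene FPKM on a log axis for the 77 members, ordered by the mean over 6 animals, with 1 point per animal (black circles, Shandong black cattle; orange squares, Luxi cattle) and a grey line from the lowest to the highest animal. Levels fell from 32.5 FPKM for MRPL9 to 1.80 for MRPL30, and the animals of MRPS6, MRPS18A, MRPL14 and MRPL16 were widely spread.

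Between the breeds, few members passed the test. Calls required a limma adjusted p under 0.05 (Benjamini-Hochberg over all 9781 genes tested) together with a fold change of 1 or more in size on the log2 scale, taken as Luxi over Shandong black on the log2(FPKM + 1) scale. By this rule 1 of 77 members was called, MRPL12, against 2.57% of all genes tested. Without the fold threshold the count remained 1, against 2.92% of all genes in either direction and 1.83% higher in the Luxi cattle. At an unadjusted limma p under 0.05, 8 of the 77 members were higher in the Luxi cattle and 3 were lower. Among all 9781 genes tested, 1470 were higher and 666 lower at that p, larger shares than among the members.

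The median log2 fold change of the members was 0.21 and that of all genes tested 0.13. Of the members, 51 had a positive value and 26 a negative one, and 42 lay above and 35 below the median of all genes. A value within 0.5 of 0 was found for 60 members, 77.9%, against 70.3% of all genes tested. The animals of the breeds did not overlap in 20 members, of which 16 were higher in the Luxi cattle, 20.8% against 20.0% of all genes, and 4 were lower, 5.19% against 9.13%. For each of these 20 the exact two-sided permutation p was 0.1, the smallest that 3 against 3 can give.

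This split depended on scaling. Size factors (median of ratios over genes) moved the median of all genes by over 0.1, to 0.017, and left 6 members higher and 9 lower without overlap, 7.79% and 11.7%, against 14.1% and 14.4% of all genes. Quantile normalization gave 7 and 10, 9.09% and 12.99% against 13.7% and 15.2% of all genes. TPM gave 11 and 12, 14.3% and 15.6% against 15.4% and 11.6%, so that the lower members exceeded the share of all genes there. The member median exceeded that of all genes by 0.012 to 0.18 in all 17 alternative settings, against 0.076 in the values given above.

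**Figure D2:**
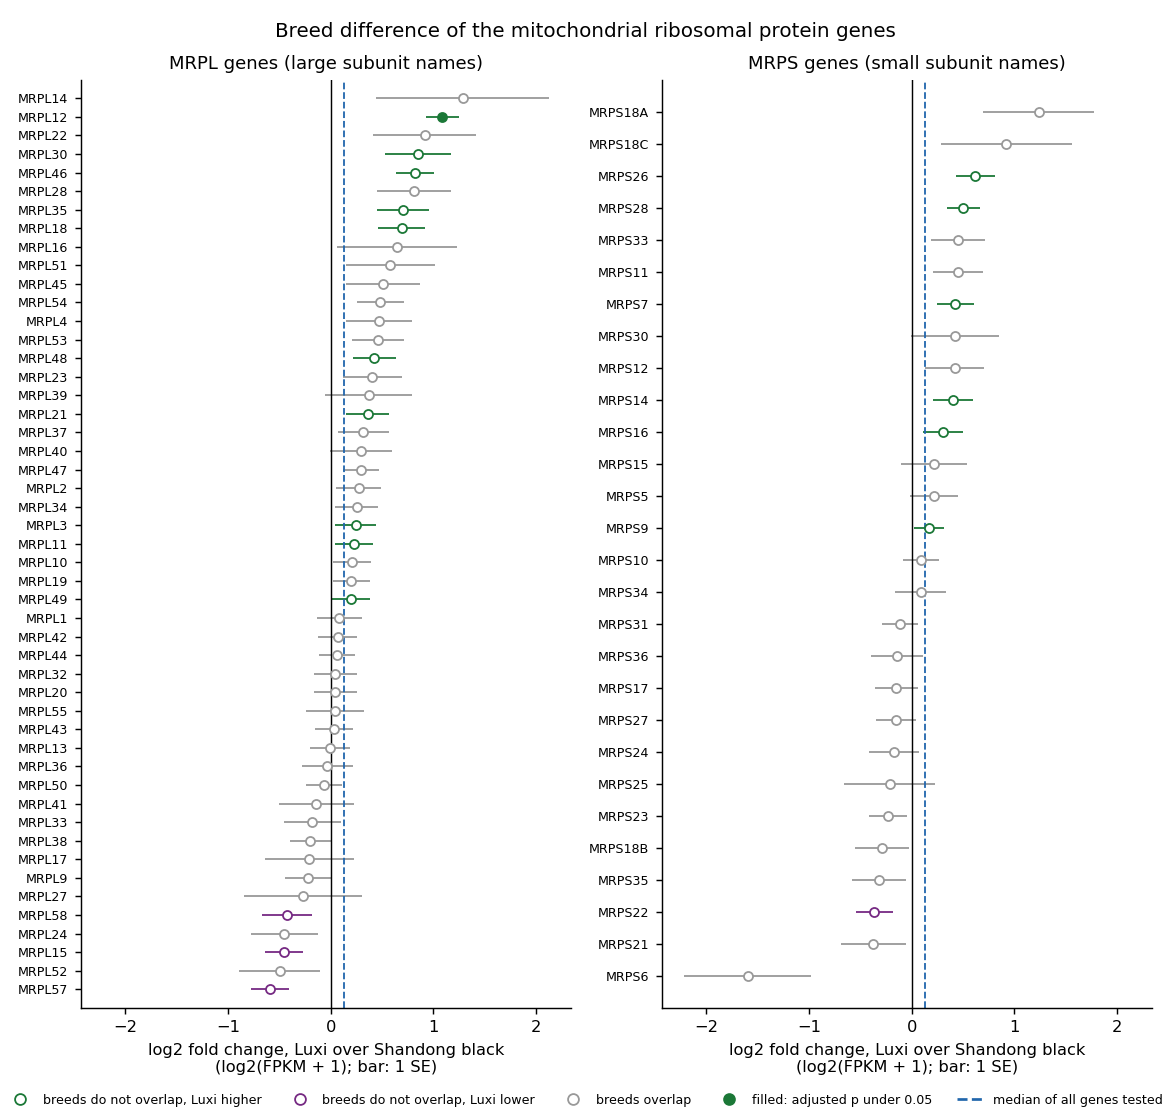
Log2 fold change, Luxi over Shandong black, of the 49 MRPL and 28 MRPS genes, with bars of 1 SE. Green marks members whose Luxi animals all exceeded the Shandong black animals (16), purple the reverse (4), the filled point an adjusted p under 0.05 (MRPL12), and the dashed line the median of all genes tested (0.13).

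MRPL12, the protein of the flexible stalk that contacts translation factors during each round of elongation, lies on chromosome 19 from 51118070 to 51122424 on the minus strand of ARS-UCD1.2. Its FPKM was 4.56, 5.18 and 4.89 in B1, B2 and B3, and 10.9, 11.04 and 12.6 in L1, L2 and L3. The Luxi animals were all higher, by more than the spread within either breed. The mean was 4.88 ± 0.311 (SD, n = 3) in the Shandong black cattle and 11.5 ± 0.922 (SD, n = 3) in the Luxi cattle, a ratio of 2.36. The log2 fold change was 1.09 (SE 0.17), and limma gave an adjusted p of 0.027.

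All 5 exons of MRPL12 carried the difference. Coverage per gigabase of library was 2.27 to 2.999 in the Shandong black cattle and 7.75 to 9.88 in the Luxi cattle on exon 1, and 4.75 to 5.68 and 10.1 to 13.4 on exon 5. No animal of one breed reached the range of the other on any of the exons. The call was nevertheless fragile: with 1 animal left out it held only without L1, and the limma adjusted p was 0.053 to 0.15 without B1, B2, B3, L2 or L3, where the log2 fold change stayed between 1.03 and 1.13. With size factors or quantile normalization the adjusted p stayed at 0.033 while the log2 fold change fell short of 1, at 0.95 and 0.93. With voom it was 1.19 at an adjusted p of 0.064.

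The other stalk proteins did not pass the test. MRPL11, which holds the factor-binding base of the stalk, had 13.4, 14.8 and 15.4 FPKM in B1, B2 and B3 and 17.0, 15.8 and 18.8 in L1, L2 and L3. The Luxi animals were higher without overlap, at a log2 fold change of 0.23 (SE 0.19, limma adjusted p = 0.50). MRPL10, on which MRPL12 is mounted, overlapped between the breeds at means of 3.55 ± 0.277 and 4.31 ± 0.921 (SD, n = 3 each) and a log2 fold change of 0.21 (adjusted p = 0.54, limma).

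**Figure D3:**
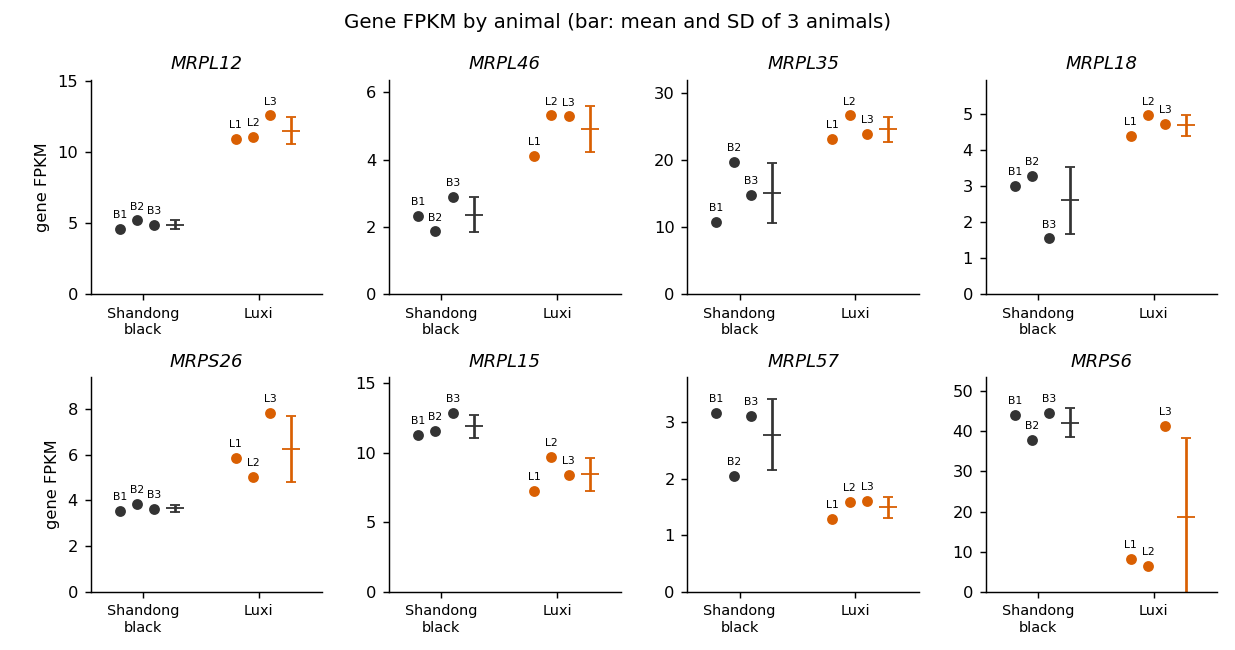
Gene FPKM of 8 members in each animal (points, black for Shandong black cattle, orange for Luxi cattle), with the mean and SD of 3 animals beside them and each axis starting at 0, where the lower bar of MRPS6 ends. MRPL12, MRPL46, MRPL35, MRPL18 and MRPS26 were higher in all Luxi animals, MRPL15 and MRPL57 lower, and MRPS6 was low in L1 and L2 only.

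Next in size among members without overlap were proteins of the large subunit. MRPL46, a protein of the central protuberance with no bacterial homologue, had 2.32, 1.87 and 2.90 FPKM in B1, B2 and B3 and 4.12, 5.32 and 5.29 in L1, L2 and L3. All Luxi animals lay above the Shandong black ones, at a ratio of means of 2.08. The log2 fold change was 0.82 (SE 0.19), and limma gave an adjusted p of 0.066. Where exon coverage replaced transcript FPKM, a check added after the data were seen, the log2 fold change was 0.84 and the adjusted p 0.047.

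MRPL35, a large subunit protein with a bacterial homologue, had 10.8, 19.7 and 14.7 FPKM in B1, B2 and B3 and 23.2, 26.6 and 23.8 in L1, L2 and L3. The breeds were apart, although the Shandong black animals were spread more widely than the Luxi animals. The log2 fold change was 0.70 (SE 0.25, limma adjusted p = 0.16).

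MRPL18, a central protuberance protein whose bacterial relative binds the ribosomal 5S RNA, had 3.003, 3.27 and 1.54 FPKM in B1, B2 and B3 and 4.38, 4.95 and 4.72 in L1, L2 and L3. B3 was the lowest and the Luxi animals lay together above the others, at a log2 fold change of 0.69 (adjusted p = 0.14, limma). MRPS26, a small subunit protein without a bacterial homologue, had 3.52, 3.83 and 3.61 FPKM in B1, B2 and B3 and 5.87, 5.01 and 7.82 in L1, L2 and L3, at a log2 fold change of 0.62 (adjusted p = 0.13, limma). Neither passed the test.

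MRPL30 belongs with these by its FPKM but not by its coverage. Its FPKM was 1.85, 0.314 and 0.940 in B1, B2 and B3 and 3.66, 1.90 and 2.17 in L1, L2 and L3, without overlap, at a log2 fold change of 0.85 (adjusted p = 0.18, limma). The coverage of its reference exons, 1.15 to 1.91 per gigabase in the Shandong black cattle and 1.46 to 6.16 in the Luxi cattle, overlapped. The fit on reference transcripts alone called it, with a log2 fold change of 1.23 (adjusted p = 0.048, limma). Those transcripts held 0.0700, 0.314 and 0.0812 FPKM in B1, B2 and B3 and 1.13, 1.90 and 2.17 in L1, L2 and L3. Assembled transcripts, which that fit leaves out, held 1.78 FPKM in B1, 0.858 in B3 and 2.52 in L1.

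At the other end, 4 members were lower in every Luxi animal. MRPL57, a small protein found only in mitochondrial large subunits, had 3.16, 2.06 and 3.12 FPKM in B1, B2 and B3 and 1.28, 1.59 and 1.61 in L1, L2 and L3. The Luxi animals lay close together below the lowest Shandong black animal, at a log2 fold change of -0.59 (SE 0.18, limma adjusted p = 0.13).

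MRPL15, an RNA-binding protein of the large subunit with a bacterial homologue, had 11.3, 11.6 and 12.9 FPKM in B1, B2 and B3 and 7.25, 9.68 and 8.42 in L1, L2 and L3. Again no Luxi animal reached the Shandong black range, and the log2 fold change was -0.46 (SE 0.18, limma adjusted p = 0.21). MRPL58, also known as ICT1, a peptidyl-tRNA hydrolase that frees stalled chains and is built into the large subunit, had means of 21.6 ± 1.85 and 16.2 ± 4.08 (SD, n = 3 each) at a log2 fold change of -0.42. MRPS22, a small subunit protein without a bacterial homologue, had means of 10.6 ± 1.11 and 8.003 ± 1.04 (SD, n = 3 each) at a log2 fold change of -0.36. The limma adjusted p of the last 2 was 0.35 and 0.30.

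MRPL49 and MRPS9 were also apart between the breeds, by much less. MRPS9, a protein of the small subunit head with a bacterial homologue, had 2.24, 2.01 and 2.17 FPKM in B1, B2 and B3 and 2.68, 2.57 and 2.33 in L1, L2 and L3, at a log2 fold change of 0.17 (adjusted p = 0.53, limma). MRPL49, specific to mitochondria, had means of 10.4 ± 0.574 and 12.2 ± 1.87 (SD, n = 3 each) at 0.19 (limma adjusted p = 0.58). On exon coverage both overlapped between the breeds.

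MRPS6, a small subunit protein at the platform with a bacterial homologue, had the most negative log2 fold change of the 77 members. It lies on chromosome 1 from 1390798 to 1455166 on the minus strand. Its FPKM was 44.1, 37.9 and 44.5 in B1, B2 and B3, and 8.20, 6.37 and 41.4 in L1, L2 and L3. L1 and L2 were the low animals, and L3 lay within the Shandong black range, so the breeds overlapped. The log2 fold change was -1.60 (SE 0.62, limma adjusted p = 0.19). Without L3 the log2 fold change of MRPS6 was -2.39 (limma adjusted p = 0.020), the one member called in that fit, whereas it was -1.28 without L1 (adjusted p = 0.26) and -1.12 without L2 (adjusted p = 0.36).

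The low level of MRPS6 in L1 and L2 was found along the whole transcript. Exons 1, 4 and 5 of its 5 reference exons carried nearly all coverage. On exon 1, coverage per gigabase was 45.0, 23.4 and 34.8 in B1, B2 and B3, 12.4 in L1, 4.30 in L2 and 35.5 in L3. On exon 5, which holds 580 bases, it was 46.5, 41.8 and 47.1 in B1, B2 and B3, 9.28 in L1, 6.84 in L2 and 40.9 in L3. L3 was inside or next to the Shandong black range on each of these exons.

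**Figure D4:**
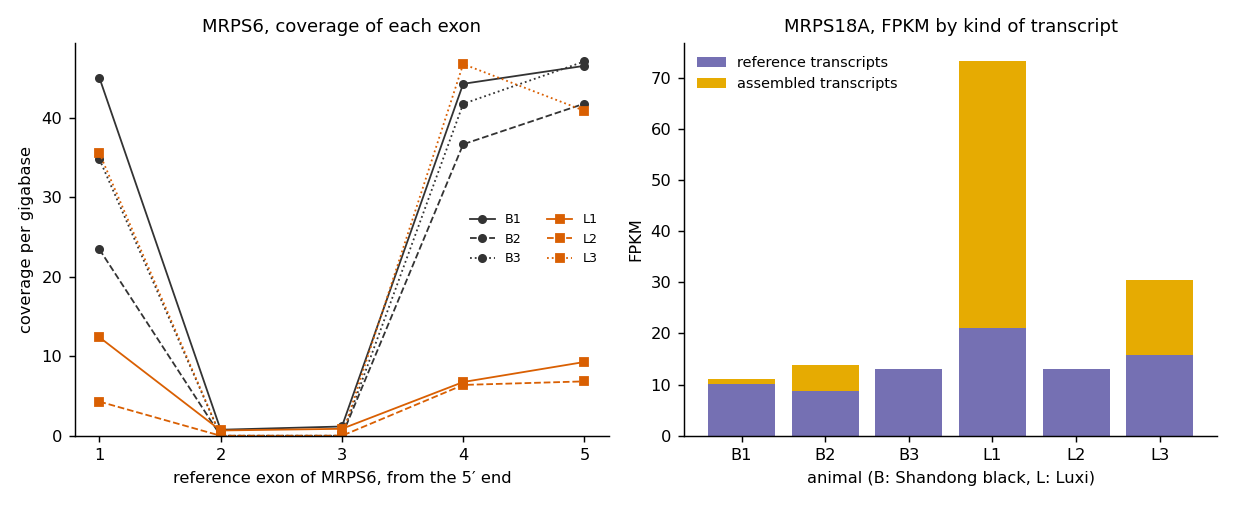
Left, coverage per gigabase of library on each of the 5 reference exons of MRPS6 in each animal, with L1 and L2 under the other 4 on exons 1, 4 and 5. Right, FPKM of MRPS18A by animal as stacked bars of reference and assembled transcripts, where assembled transcripts carried 52.2 FPKM in L1 and 14.6 in L3.

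MRPS18A, MRPS18B and MRPS18C descend from a single bacterial protein, S18, and differ in their place in the mitoribosome, with MRPS18A found in the large subunit despite its name. MRPS18A had 11.1, 13.9 and 13.1 FPKM in B1, B2 and B3, and 73.2, 13.1 and 30.5 in L1, L2 and L3. L1 and L3 were high and L2 lay within the Shandong black range. The log2 fold change was 1.24 (SE 0.54, limma adjusted p = 0.24).

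Most of the excess of MRPS18A lay in transcripts that were assembled from reads and were not in the reference annotation. The reference transcripts held 10.04, 8.73 and 13.1 FPKM in B1, B2 and B3 and 21.0, 13.1 and 15.9 in L1, L2 and L3. Assembled transcripts of 558 to 587 bases, each with 4 exons, were found at 14.6 FPKM in L3, 52.2 in L1 and 4.24 in B2. All 3 began on chromosome 23 between positions 17183261 and 17183290 with an exon of 219 to 248 bases that shares no base with the reference exons of the gene, and went on along its last exons. On coverage of reference exons the log2 fold change of MRPS18A was 0.55 (limma adjusted p = 0.31). That coverage still counts assembled transcripts where they lie on these exons. It is averaged over 7050 bases, at means of 2.04 per gigabase in the Shandong black and 3.71 in the Luxi cattle, where adding 1 understates the change. On reference transcripts only the log2 fold change was 0.60 (limma adjusted p = 0.24).

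MRPS18C, the closest relative of the bacterial protein, had 3.47, 0.937 and 7.49 FPKM in B1, B2 and B3 and 11.3, 2.58 and 10.4 in L1, L2 and L3. The animals of each breed were widely spread and overlapped, at a log2 fold change of 0.92 (adjusted p = 0.43, limma). MRPS18B, 14.7 ± 1.54 and 12.2 ± 3.66 (SD, n = 3 each), stood at -0.29 (limma adjusted p = 0.54).

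MRPS30, the other member that sits in the large subunit in spite of its name, had 0.776, 2.20 and 1.21 FPKM in B1, B2 and B3 and 5.18, 1.15 and 1.27 in L1, L2 and L3, so that L1 alone was high. Coverage of its reference exons was 9.07, 9.19 and 8.70 per gigabase in B1, B2 and B3 and 7.57, 11.4 and 10.98 in L1, L2 and L3, and L1 was then the lowest. In the 5 animals other than L1, longer assembled transcripts that had less than 50% of their bases on MRPS30 exons, and were assigned to no gene, held 0.579 to 4.74 FPKM. L1 had none.

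The proteins of the decoding site and the mRNA entry did not pass the test. MRPS12, which lines the decoding site, had means of 1.95 and 2.88 FPKM and a log2 fold change of 0.42 (adjusted p = 0.43, limma), which was -0.024 on reference transcripts alone. MRPS5, at the entry, had 7.17 and 8.35 FPKM and 0.22 (limma adjusted p = 0.62), and MRPS24 had 3.53 and 3.15 FPKM and -0.17 (limma adjusted p = 0.72). All 3 overlapped between the breeds.

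Other members were set by single animals, and are named here for their values. MRPL14, a core protein of the large subunit, had the largest log2 fold change of the members, 1.29 (SE 0.84, limma adjusted p = 0.41), with 1.25, 1.22 and 3.23 FPKM in B1, B2 and B3 and 0.788, 6.10 and 23.1 in L1, L2 and L3. On FPKM, L1 was the lowest and L3 the highest animal of all. Coverage of its reference exons per gigabase was 2.43, 1.47 and 2.52 in B1, B2 and B3. In L1, L2 and L3 it was 2.41, 3.91 and 9.02, so B2 was then the lowest animal. The log2 fold change on coverage was 0.83 (limma adjusted p = 0.23). Transcripts on its exons that were assigned to no gene held 5.40 FPKM in L1, 0 in L3 and 1.41 to 2.99 elsewhere. MRPL16, also of the core, was at 1.98 FPKM in B1 and 9.10 to 14.0 in the other animals. Its exon coverage was 4.41 in B1 and 9.10 to 14.0 in the others. MRPL27, another core protein, was at 1.66 FPKM in L1 and 7.30 to 12.9 in the others, and at 2.97 and 7.20 to 12.9 on exon coverage.

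By place in the mitoribosome, the 1 called member, MRPL12, belongs to the stalk of the large subunit. Of the 49 MRPL genes 10 were higher and 3 lower in all Luxi animals, 20.4% and 6.12%, and the median log2 fold change was 0.23. Of the 28 MRPS genes 6 were higher and 1 was lower, 21.4% and 3.57%, with a median of 0.13, that of all genes. The shares of all genes were 20.0% and 9.13%, near the higher shares of both groups. The 6 core members of the large subunit had a median of 0.37, the 7 at the exit of the nascent chain 0.30, the 7 of the central protuberance 0.30 and the 7 of the small subunit head 0.17. The groups were not tested against each other.

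The 47 members with a homologue in the bacterial ribosome included 12 higher and 1 lower without overlap, 25.5% and 2.13%, at a median of 0.23. The 29 members without one included 4 higher and 3 lower, 13.8% and 10.3%, at a median of 0.07. All genes stood at 20.0% and 9.13%, and these lists were not tested against each other. MRPS36, which is now placed in the oxoglutarate dehydrogenase complex and not in the mitoribosome, is in neither list. Its log2 fold change was -0.15 (limma adjusted p = 0.77) on FPKM and 0.54 (adjusted p = 0.14) on exon coverage, where the breeds no longer overlapped.

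The animals differed in how many members they led. B1 was the lowest animal in 25 members, 32.5% against 19.4% of all genes tested, and L3 was the highest in 33, 42.9% against 22.3%. L1 was the lowest in 19 members and the highest in 15. The summed FPKM of the 77 members was 668, 714 and 743 in B1, B2 and B3 and 731, 763 and 914 in L1, L2 and L3, with L1 inside the Shandong black range. As a share of the FPKM of all genes this was 0.257, 0.285 and 0.281% in B1, B2 and B3. In L1, L2 and L3 it was 0.350, 0.251 and 0.289%, so by share L1 was the highest animal and L2 the lowest. The FPKM of all genes summed to 250550 to 264695 in the Shandong black cattle and to 208603, 303950 and 316748 in L1, L2 and L3.

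By name, the MRPL sum was 1.75, 1.75 and 1.73 times the MRPS sum in B1, B2 and B3, and 1.45, 2.24 and 2.07 times in L1, L2 and L3. With MRPS18A and MRPS30 counted in the large subunit, where they sit, the large subunit sum was 1.89, 1.94 and 1.88 times the small subunit sum in B1, B2 and B3 and 2.33, 2.45 and 2.43 times in L1, L2 and L3, so that all Luxi animals were higher. Without MRPS6 as well, it was 2.28 to 2.33 times in the Shandong black cattle and 2.42 to 2.88 times in the Luxi cattle. The place of L1 depended on where MRPS18A was counted, since by name L1 was the lowest animal. MRPS18A held 73.2 FPKM in L1, of which 52.2 lay on assembled transcripts, and a ratio without MRPS18A was not taken. These sums were formed after the values were seen and were not tested. Without MRPS6 and MRPS18A the members summed to 613, 662 and 685 FPKM in B1, B2 and B3 and 649, 744 and 842 in L1, L2 and L3. Within breeds, the log2 level of a member had a median SD of 0.14 in the Shandong black cattle and 0.30 in the Luxi cattle, against 0.19 and 0.31 for all genes tested, and 57 of the 77 members were more spread in the Luxi cattle.

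Of 91 tested genes in 8 lists around the mitoribosome, 2 were called, 2.20% against 2.57% of all genes. NSUN4, a methyltransferase that modifies mitochondrial ribosomal RNA and helps join the subunits, had 1.75, 1.92 and 0.183 FPKM in B1, B2 and B3 and 6.21, 7.999 and 8.03 in L1, L2 and L3. All Luxi animals were higher, at a log2 fold change of 1.98 (SE 0.35, limma adjusted p = 0.037), and on exon coverage the value was 0.80 (adjusted p = 0.031). Of the 20 assembly factors tested it was the 1 called, 4 were higher and 2 lower without overlap, the former 20.0% as among all genes, and their median was 0.15.

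TOMM20, a receptor of the protein import pore in the outer membrane, through which mitoribosomal proteins enter, had 52.4, 43.2 and 45.4 FPKM in B1, B2 and B3 and 17.7, 18.9 and 25.4 in L1, L2 and L3. It was lower in all Luxi animals, at a log2 fold change of -1.16 (SE 0.23, limma adjusted p = 0.048). The other 11 genes often used to gauge mitochondrial content, among them citrate synthase (CS, log2 fold change 0.14), were not called, and the list had a median of 0.01.

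In the remaining lists no gene was called. The 12 translation factors had a median log2 fold change of 0.12, with MTRF1L, a release factor, the largest at 0.52. The 16 mitochondrial aminoacyl-tRNA synthetases had a median of 0.17, with SARS2 at 0.62, and the 4 genes for transcription of mitochondrial DNA a median of -0.11, with POLRMT, the RNA polymerase, at -0.19. Of 5 mitoribosome proteins that carry other names, GADD45GIP1 had the largest value, -0.51, and was lower in all Luxi animals. The limma adjusted p of these 4 genes was 0.18 to 0.64.

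Among 9 regulators of mitochondrial genes, PPARGC1A, a coactivator that drives mitochondrial gene expression, had 2.07, 1.70 and 1.93 FPKM in B1, B2 and B3 and 44.5, 5.18 and 7.14 in L1, L2 and L3. All Luxi animals were higher and L1 stood far above the rest, at a log2 fold change of 2.19 (SE 0.68, limma adjusted p = 0.13). The 9 had a median of 0.36, and 4 were higher without overlap, 44.4% against 20.0% of all genes.

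The mRNAs that the mitoribosome translates were read from 13 mitochondrially encoded genes, of which 7 had a positive and 6 a negative log2 fold change and none was called. They summed to 25379, 18700 and 23526 FPKM in B1, B2 and B3, and to 43799, 19900 and 19803 in L1, L2 and L3. L1 was high and the other Luxi animals lay within the Shandong black range. COX3, the largest of the 13 in size, had a log2 fold change of -1.80 on FPKM (limma adjusted p = 0.42) and -0.28 on exon coverage.

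The members had a lower median than 2 other large families. Of 45 complex I genes tested (names beginning with NDUF), 23 were higher and 1 was lower in all Luxi animals, 51.1% and 2.22%, at a median log2 fold change of 0.36 and with none called. The 77 cytosolic ribosomal protein genes tested had 13 higher and 2 lower, 16.9% and 2.60%, at a median of 0.30, with none called. Their summed FPKM was 10115 to 11834 in the Shandong black cattle and 10807 to 20337 in the Luxi cattle. By summed FPKM, L3 was the highest in both families as it was in the members. As a share of the FPKM of all genes, L3 was the highest in the cytosolic family, at 6.42%. In complex I, L1 was the highest by share, at 1.14% against 0.882% in L3, as L1 was in the members. The families were not tested against each other.

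**Figure D5:**
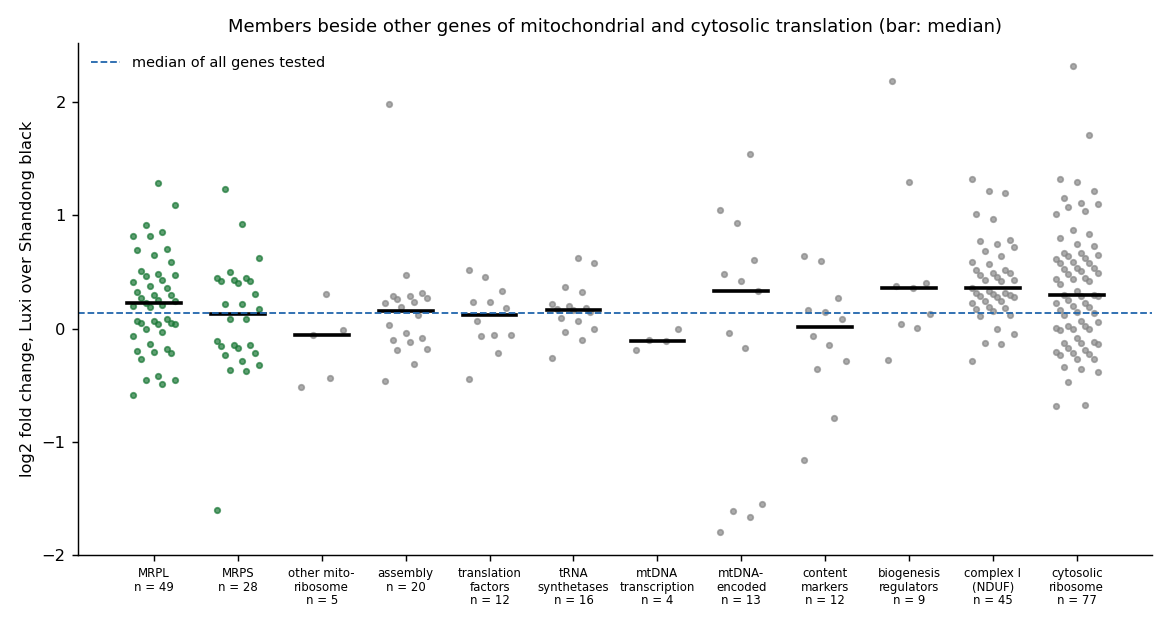
Log2 fold change, Luxi over Shandong black, of each tested gene of the MRPL and MRPS genes (green) and of 10 other lists (grey), with the list median as a black bar and the median of all genes tested (0.13) as a dashed line. The medians of the MRPL and MRPS genes, 0.23 and 0.13, lay under that of the complex I genes, 0.36.

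Many members share a start region with a gene on the other strand. In 26 of 77, 33.8% against 17.5% of all genes tested, the start of an opposite-strand gene lay within 1000 bases of the start of the member, as a description of the annotation with no test, and in 21 of the 26 within 250 bases. One such pair lies within the family, MRPL46 and MRPS11 on chromosome 21, with starts at 19484145 and 19484186, 41 bases apart. MRPS11 had 6.16, 8.73 and 10.8 FPKM in B1, B2 and B3 and 12.1, 9.77 and 13.7 in L1, L2 and L3, and overlapped where MRPL46 did not.

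Of the 21 members whose neighbour was tested, 12 had a log2 fold change of the same sign as the neighbour and 9 the opposite sign, and no neighbour was called. MRPL46 and MRPS11 are each counted once as the member. MRPL15 and LYPLA1, a thioesterase gene 95 bases away on chromosome 14, stood at -0.46 and -0.54, whereas MRPL18 and TCP1, a chaperonin subunit gene on chromosome 9, stood at 0.69 and -0.49. Exon bases were shared with an opposite-strand gene by 9 members and with a same-strand gene by none, and on member exons 0.336 to 0.578% of coverage lay on the opposite strand.

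For most members the values rested on annotated transcripts. In 63 members at least 95% of the FPKM lay on reference transcripts, and MRPL45, a membrane anchor of the large subunit, was the one under 50%, at 6.06%. When the coverage of reference exons replaced FPKM, the log2 fold change of 7 members moved by over 0.3, namely MRPS18A, MRPS36, MRPS18C, MRPL14, MRPL45, MRPL30 and MRPS30. The sign changed in 5, which stood between -0.22 and 0.07 on FPKM.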

How the data were processed

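Muscle RNA-seq of 6 cattle was used, 1 library per animal, grouped by the breed in the labels. The authors used Fastp for trimming, HISAT for alignment to the ARS-UCD1.2 genome, and StringTie for assembly within each library (1.3.3b with strand-specific settings per the file headers). They deposited coverage, FPKM and TPM of every transcript, reference or assembled, and an unlisted transcript was counted as 0. Read counts were not used, so there is no count model and no counting interval.

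Gene FPKM was the sum over reference transcripts plus any assembled transcript of the same strand that had 50% or more of its bases inside the exons of that gene. Transcripts left out carried 21.6 to 29.8% of FPKM, the most in L1. Exon coverage is the coverage of all same-strand exons on the reference exons of a gene, per gigabase of library. Genes with a mean of at least 1 FPKM in 1 breed were tested with limma 3.58.1 in R 4.3.3 (lmFit, eBayes with trend) on log2(FPKM + 1) over all 6 animals, which understates changes of low genes. The procedure was tested on simulated data.

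The members and lists were chosen with earlier results of these data known. Named members were those called, the 6 largest and 6 smallest log2 fold changes without overlap, the 5 highest and 5 lowest levels, and the stalk, S18, decoding and misnamed members; around them, called genes and the largest change of each list. MRPL14, MRPL16, MRPL27, MRPL45, MRPS11, MRPS36, the genes of stable rank, CS, TCP1 and LYPLA1 were added after their values were seen. Chromosome numbers come from the RefSeq table of ARS-UCD2.0, in which all 77 names were found, and positions from the files. Alternatives were the pseudocount, the filter, TPM, size factors, quantile normalization, eBayes without trend, voom on reads estimated from coverage, a replicate block, reference transcripts only, exon coverage and leaving out each animal. Figures used matplotlib.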

Additional observations from a re-analysis of the deposited data

How the results depend on the processing

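The number of members called, 1, was 0 with size factors, quantile normalization, voom and the replicate block, 2 on reference transcripts only (MRPL12 and MRPL30), and 0 to 1 with an animal left out. It was 1 in the other 6 alternatives. The number at an adjusted p under 0.05 (limma), also 1, was 2 on exon coverage and on reference transcripts only, 0 with voom and the replicate block, and 0 to 4 with an animal left out, the 4 without L1. Where the count was 0, 5 to 14 members had an unadjusted p under 0.05, with no count of all genes set beside it, so nothing is read from it. The calls over all genes moved too. With the fold threshold, 593 of 9707 genes and 1 member were called without L1. Over all genes, 264 were called with size factors, 288 with quantile normalization and 91 with voom, against 251 of 9781 in the values given above. The number higher without overlap, 16, was 7 with quantile normalization, 6 with size factors and 16 to 30 with an animal left out. The number lower, 4, was 12 with TPM, 10 with quantile normalization, 9 with size factors, 7 with voom, and 4 to 11 with an animal left out. The shares of all genes moved as well, from 20.0% higher and 9.13% lower to 13.7% and 15.2% with quantile normalization, 14.1% and 14.4% with size factors, 15.4% and 11.6% with TPM, 18.6% and 9.79% with voom, and 23.3 to 35.9% and 10.7 to 15.9% with an animal left out. The median log2 fold change kept its sign throughout, from 0.056 with quantile normalization to 0.27 without L1. The log2 fold change of MRPL12 was 0.93 to 1.22 in every alternative, and its limma adjusted p was 0.018 to 0.15. For the 26 named members, 417 of 431 values kept their direction and their side of the threshold. All of these members but MRPL12 were uncalled to begin with, and staying uncalled counts as kept. Settings that alter only the test, such as eBayes without trend, cannot move the log2 fold change, so this count says little about robustness. The sign turned for MRPS12 on reference transcripts only (-0.024) and, without L1, for MRPS24 (0.087) and MRPS30 (-0.074), which with an animal left out ranged from -0.36 to 0.087 and from -0.074 to 0.69. The cause of these changes was not tested.

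Replicate numbers are shared between the breeds but belong to different animals, and the deviations of same-numbered animals from their breed means correlated at 0.084, 0.087 and 0.075. With the replicate block 0 members were called, 135 genes were called instead of 251, and MRPL12 kept a log2 fold change of 1.09 at an adjusted p of 0.060. Depth was taken here as aligned bases, and the precision of every value rests on 3 animals per breed. With an animal left out, between 3 and 593 genes were called, so a missing call of a member at this size is not evidence that its level is the same in both breeds.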
